A study of Mus musculus with 6 samples.

Results

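In a comparison of duodenal RNA between VDR-null and wild-type mice, 9 genes marked B cells, plasma cells and the transport of IgA: Ms4a1, Cd79a, Cd79b, Cd37 and Fcrla for B cells, Tnfrsf17, Mzb1 and Jchain for plasma cells, and Pigr for transport. They were taken by symbol, each had 1 probe set that the platform annotation pairs with that symbol alone, and they stand among 22180 genes named in this way, 13174 of which were bright enough to be tested. The filter for testing asked for a signal above 5.17, the median of all log2 signals, on 3 or more of the 6 arrays. Both groups, 3 VDR-null mice (lacking the vitamin D receptor) and 3 wild-type mice, had a C57Bl/6 background and were 10 weeks old, with RNA of each duodenum on its own array. The sources used here give neither the targeted allele nor the sex or diet of the mice. Vdr itself, the gene that the labels name as lost, read from 10.72 to 11.11 in wild-type and from 10.85 to 10.99 in VDR-null duodenum, and its groups overlap. Because the sources used here do not say where its probes lie relative to the targeted part, Vdr does not check the labels.

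B cells carry an antigen receptor on their surface. When they are stimulated, some become plasma cells, which stop displaying the receptor and secrete antibody in bulk. In the small intestine most plasma cells lie in the lamina propria under the epithelium and secrete IgA as a dimer held together by the joining chain. The polymeric immunoglobulin receptor on the basal side of epithelial cells takes up this dimer, carries it across the cell and releases it into the lumen.

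The arrays describe whole tissue, in which fewer cells of a type and less RNA per cell cannot be told apart. The first principal component of the tested genes carried 62.2% of the variance and had wild-type replicate 1 and VDR-null replicate 1 at its ends, so values without both are given below. Markers of the absorptive brush border followed that axis: relative to the mean of the 6 arrays, 17 such genes averaged -1.49 on wild-type replicate 1 and 0.97 on VDR-null replicate 1, and between -0.10 and 0.41 on the others. Most of the antibody genes did not follow it. Their lowest arrays were wild-type replicate 3 and VDR-null replicate 1.

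The regulatory sequence in front of 3 of these genes is shown because 2 of them, Cd79a and Jchain, moved together from mouse to mouse while Pigr did not. Each is the 250 bases before the RefSeq gene start in GRCm38.p6, read in the direction of the gene. Of the 9 genes, 6 had a promoter in the RefSeq table used. Capitals mark GAGGAA, or its reverse complement, in Cd79a and Jchain (the core bound by the B cell and myeloid factor PU.1), and CACGTG, an E-box of the kind bound by USF factors, in Pigr.
Cd79a (chr7:24897247-24897496, plus strand): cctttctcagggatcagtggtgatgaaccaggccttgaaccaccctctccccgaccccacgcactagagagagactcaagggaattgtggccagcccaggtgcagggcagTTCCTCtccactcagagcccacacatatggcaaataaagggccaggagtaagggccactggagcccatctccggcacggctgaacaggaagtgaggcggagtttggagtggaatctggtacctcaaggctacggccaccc
Jchain (chr5:88527898-88528147, minus strand): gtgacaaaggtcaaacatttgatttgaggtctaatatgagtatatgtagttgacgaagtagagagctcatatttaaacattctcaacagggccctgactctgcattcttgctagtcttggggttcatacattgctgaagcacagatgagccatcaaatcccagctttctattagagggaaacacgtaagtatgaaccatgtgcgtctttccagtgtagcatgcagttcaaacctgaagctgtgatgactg
Pigr (chr1:130826434-130826683, plus strand): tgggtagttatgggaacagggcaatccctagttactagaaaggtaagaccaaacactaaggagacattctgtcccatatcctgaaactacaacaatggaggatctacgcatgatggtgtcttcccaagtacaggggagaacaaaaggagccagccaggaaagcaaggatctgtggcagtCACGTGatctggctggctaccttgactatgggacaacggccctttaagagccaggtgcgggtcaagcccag
The Cd79a window held the PU.1 core once, starting 140 bases before the gene start, and the Jchain window did not hold these letters. Over all 32851 windows of this length in the table, searched on both strands, 23.3% held the core. Of the 6 windows of the members, that of Pigr included, 4 did (Cd37, Cd79a, Fcrla and Tnfrsf17). The Pigr window held the E-box once, starting 71 bases before the gene start. Of all windows 6.02% held it, that of Cd37 among them. The octamer ATGCAAAT, known from immunoglobulin promoters, was in 1.6% of all windows and in 0 of these 6. CCCNNGGG, the core of the EBF site, was in 11.8% of all windows and in 0 of the 6. Direct repeats of AGGTCA or of AGTTCA with 3 bases between the copies, of the type bound by the vitamin D receptor with RXR, were in 0 of the 6. The first was in 0.00609% of all windows and the second in 0. Such matches describe letters in a window and do not show binding. The search allowed no mismatch, so a count of 0 does not show that a binding site is absent.

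The genotypes were not told apart by any of the 9 genes. In limma, 0 of the 8 tested members passed an adjusted p of 0.05 and 0 had an unadjusted p under 0.05. Over all tested genes the corresponding shares were 0% and 5.23%. The arrays of the genotypes overlapped in each member, whereas they did not overlap in 11.1% of tested genes. The log2 difference, taken throughout as VDR-null minus wild-type, was above 0 in 7 of the 8 and had a median of 0.21, where 44% of all tested genes lay above 0 and 56% below, with a median of -0.03. Adjusted p-values ran from 0.683 to 0.962. What stands out in the values is the spread between mice of the same genotype.

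**Figure D1:**
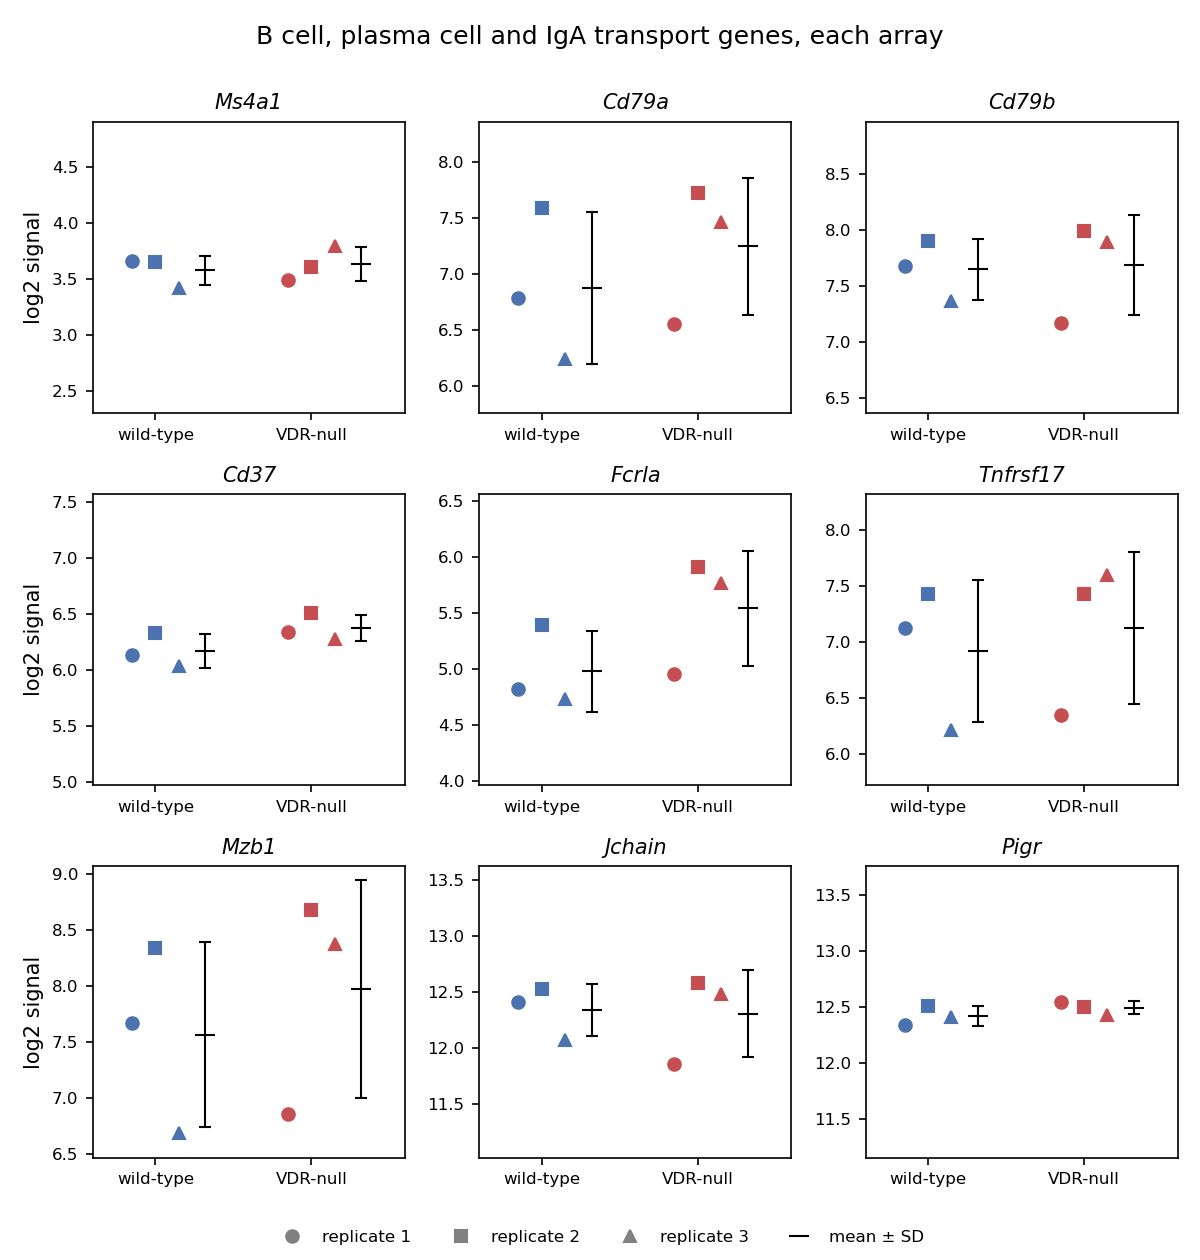
Log2 signal (y axis) of the 9 genes on each array, with wild-type in blue and VDR-null in red, a marker shape per replicate number, and the mean with its SD (n = 3) in black. Every panel spans the same number of log2 units, and Mzb1, from 6.69 to 8.68, is spread widely within both genotypes, while Pigr keeps between 12.34 and 12.55.

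Cd79a and Cd79b encode the signalling chains of the B cell receptor. Cd79a (probe set 17475127) gave 6.79, 7.59 and 6.25 on the wild-type arrays, in the order of their replicate numbers, and 6.56, 7.73 and 7.47 on the VDR-null arrays. The groups overlap over most of their range, with wild-type replicate 3 lowest and VDR-null replicate 2 highest. Its difference was 0.37 ± 0.41 (SE), and the 95% confidence interval of the fold ran from 0.66 to 2.54, an interval that takes in a 2-fold increase. With 1 array left out the Cd79a difference ran from 0.06 (without wild-type replicate 3) to 0.73 (without wild-type replicate 2). Without both replicate 1 arrays it was 0.68. Cd79b (17270837) gave 7.68, 7.90 and 7.36 on the wild-type arrays and 7.17, 7.99 and 7.89 on the VDR-null arrays. Both its lowest and its highest array were VDR-null. The difference of Cd79b was 0.04 ± 0.24 (SE), with a fold between 0.69 and 1.53, and it turned to -0.11 when wild-type replicate 3 was left out, to -0.12 when VDR-null replicate 2 was, and to -0.07 when VDR-null replicate 3 was. Without both replicate 1 arrays it was 0.31.

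The other B cell members were closer to the limit of the filter. Fcrla encodes an Fc receptor-like protein that is kept inside B cells. Fcrla (17229596) gave 4.82, 5.40 and 4.73 on the wild-type arrays and 4.96, 5.91 and 5.77 on the VDR-null arrays, and passed the filter on 3 arrays, 1 wild-type and 2 VDR-null. Its difference, the largest of the 8, was 0.56 ± 0.29 (SE; limma unadjusted p = 0.0921, adjusted p = 0.683), on signals near the filter value. Without both replicate 1 arrays it was 0.77 (limma unadjusted p = 0.0209, adjusted p = 0.999). Cd37, a tetraspanin found on mature B cells and at lower levels on other leukocytes, gave 6.14, 6.34 and 6.04 on the wild-type arrays and 6.35, 6.51 and 6.28 on the VDR-null arrays (17490702). Only wild-type replicate 2 lay within the VDR-null range, and the difference was 0.21 ± 0.11 (SE; fold between 0.96 and 1.39). Cd37 kept a positive difference of 0.14 to 0.29 when any 1 array was left out, as did Fcrla with 0.38 to 0.85, and Cd37 was at 0.20 without both replicate 1 arrays.

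Ms4a1, which encodes the B cell surface protein CD20, was dim throughout. The signals of its probe set (17362922) were 3.65, 3.65 and 3.42 on the wild-type arrays and 3.49, 3.61 and 3.79 on the VDR-null arrays, below the filter on all 6 arrays, so the gene was not tested. Some other B cell markers were dim as well, 9 of the 26 measured on a list of B cell genes. Cr2, the complement receptor of follicular B cells, read at most 3.56, Fcer2a at most 4.02, the kinase Blk at most 4.82 and the homing receptor Cxcr5 at most 4.20. Pax5, the factor that maintains B cell identity, lay above the filter value on 2 arrays and reached 5.34. The other 17 passed the filter. Among them the B cell lectin Cd22 read at least 6.10 on all 6 arrays, the BAFF receptor Tnfrsf13c at least 6.41, the adaptor Bank1 at least 6.28, and Blnk, a linker in B cell receptor signalling, at least 8.65. These 9 genes, from Cr2 to Blnk, were named after their values were seen. Of the 5 B cell members, Cd79a, Cd79b, Cd37 and Fcrla passed the filter, and Cd79a and Cd79b transcripts are also known from plasma cells.

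Among the plasma cell genes, Mzb1 had the widest range of the 9. This endoplasmic reticulum protein, which helps to assemble and secrete antibody, gave 7.68, 8.34 and 6.69 on the wild-type arrays and 6.86, 8.68 and 8.38 on the VDR-null arrays (17353619). The highest and the lowest mouse of a genotype were 3.13-fold apart in wild-type and 3.53-fold apart in VDR-null, and the groups cover much the same range. The difference was 0.40 ± 0.57 (SE), with a fold between 0.52 and 3.38, was -0.03 without wild-type replicate 3 and 0.96 without VDR-null replicate 1, and was 1.01 without both replicate 1 arrays (limma adjusted p = 0.999). The standard deviation of Mzb1 within genotypes, 0.90, was larger than that of 99.1% of tested genes.

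Tnfrsf17 encodes BCMA, the receptor through which plasma cells receive survival signals. It gave 7.12, 7.42 and 6.21 on the wild-type arrays and 6.34, 7.42 and 7.60 on the VDR-null arrays (17322944). In each genotype 1 mouse was low and the others were high. The difference of Tnfrsf17 was 0.20 ± 0.42 (SE; fold between 0.58 and 2.29), -0.15 when wild-type replicate 3 was left out and -0.03 when VDR-null replicate 3 was. Without VDR-null replicate 1 it was 0.59, and without both replicate 1 arrays 0.69. The standard deviation of Tnfrsf17 within genotypes exceeded that of 98.1% of tested genes.

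Jchain encodes the joining chain of polymeric IgA and IgM. It gave 12.41, 12.52 and 12.07 on the wild-type arrays and 11.86, 12.58 and 12.48 on the VDR-null arrays (17449447), with the same low arrays as Mzb1 and Tnfrsf17 but within 0.72 log2 units over all 6. The difference was -0.03 ± 0.21 (SE), the only negative one among the 8, with a fold between 0.69 and 1.39. A 2-fold change in signal in either direction lies outside that interval. Jchain, like Pigr, lay toward the top of the signals, whose highest was 13.77. Whether such bright probe sets understate changes was not tested. The sign of the Jchain difference was not stable: it was 0.0078 when wild-type replicate 1 was left out, 0.06 when wild-type replicate 2 was and 0.19 when VDR-null replicate 1 was, and 0.23 without both replicate 1 arrays.

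**Figure D2:**
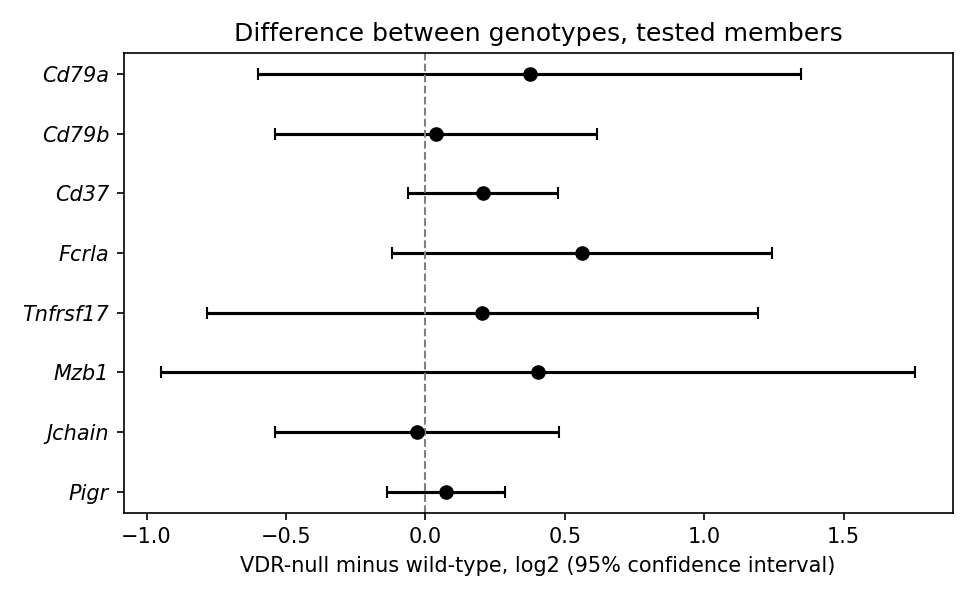
Difference between genotypes (x axis, VDR-null minus wild-type, log2) of the 8 tested genes, with points for the estimate and bars for the limma 95% confidence interval from 3 arrays per genotype. All 8 intervals include 0, and the widest, that of Mzb1, runs from -0.95 to 1.76, while that of Pigr runs from -0.14 to 0.29.

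Across the 6 arrays most of the antibody genes shared their lowest pair of arrays, while the order within and above that pair varied. Wild-type replicate 3 and VDR-null replicate 1 were the lowest arrays in 5 of the 8 tested members (Cd79a, Cd79b, Tnfrsf17, Mzb1 and Jchain), and in Ms4a1 at its dim level, whereas this held for 1406 tested genes, or 10.7%. This pair of arrays was picked out after the values were seen, and it holds 1 mouse of each genotype. Within genotypes the standard deviation ranked at percentiles 89.65 to 99.13 of tested genes in 6 of the 8 tested members. It ranked at 42.22 in Cd37 and at 11.77 in Pigr. With wild-type replicate 3 and VDR-null replicate 1 left out, 0 members and 0 of all tested genes passed the limma threshold. The differences were then 0.40 for Cd79a, 0.15 for Cd79b, 0.24 for Tnfrsf17, 0.52 for Mzb1 and 0.06 for Jchain.

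Other plasma cell genes repeated this low pair. Of a list of 20 genes, which holds the immunoglobulin constant regions, 10 could be named by 1 symbol and were tested, and in 9 of them the same 2 arrays were lowest. Irf4, a transcription factor of plasma cell fate, gave 7.30, 7.70 and 6.16 on the wild-type arrays and 6.69, 7.87 and 7.93 on the VDR-null arrays. Derl3, which takes part in the disposal of misfolded proteins, read 7.93, 8.27 and 7.40 against 7.20, 8.61 and 8.46. The exception was Ell2, an elongation factor, which was lower on every VDR-null array (difference -0.23 ± 0.11, SE; limma adjusted p = 0.683). In this list 1 of the 10 had no overlap between the genotypes, against 11.1% of all tested genes. Ighm, the constant region of IgM, differed by -0.04 ± 0.13. In this list VDR-null duodenum had 8 genes higher and 2 lower, with a median difference of 0.21, and 0 passed the limma threshold or an unadjusted p under 0.05. Dropping wild-type replicate 3 took that median to -0.0061, dropping VDR-null replicate 1 took it to 0.52, and dropping the first array of each genotype took it to 0.56. With the mean of the smooth muscle markers as a covariate it was -0.29. Derl3 and Ighm were named after their values were seen. The constant regions of IgA and of the light chains were not analysed here.

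The other B cell genes repeated the low pair in part. Of 28 listed genes 17 were tested, 11 of them higher and 6 lower in VDR-null duodenum, with a median of 0.05, 0 past the limma threshold and 0 at an unadjusted p under 0.05. The same 2 arrays were lowest in 7 of the 17. Pou2af1, the coactivator of octamer-bound promoters, was spread like the plasma cell genes, with 7.91, 8.05 and 7.25 on the wild-type arrays and 7.22, 8.81 and 8.25 on the VDR-null arrays. Ebf1, a factor of early B cells that stromal cells also express, differed by -0.26 ± 0.13 (SE), and Ciita, the activator of MHC class II genes, by 0.19 ± 0.12. Pou2af1 was named after its values were seen.

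Genes of the secretory apparatus, which plasma cells share with goblet and other secretory cells, showed the low pair at smaller amplitude. Of 15 tested genes, 10 had the same pair of arrays lowest. The list's mean lay at -0.13 on wild-type replicate 3 and -0.28 on VDR-null replicate 1, and between 0.05 and 0.22 on the others. Between the genotypes 6 were higher and 9 lower, with a median of -0.01 and 0 past the limma threshold or at an unadjusted p under 0.05. Edem1, which sorts misfolded glycoproteins, differed by 0.18 ± 0.19 (SE), and the prolyl isomerase Fkbp11 by -0.11 ± 0.10. Xbp1, the factor that expands the secretory apparatus, gave 10.49, 10.64 and 10.19 on the wild-type arrays and 10.06, 10.66 and 10.50 on the VDR-null arrays.

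Markers of other cells moved with the pattern to different degrees. Among 12 macrophage and myeloid markers, 10 had wild-type replicate 3 and VDR-null replicate 1 lowest, and their mean lay at -0.33 and -0.30 there. Among the 12 tested T cell markers, the 17 brush border markers and the 10 smooth muscle markers, 0 did. T cell markers were lowest on wild-type replicate 1 (-0.73) and highest on VDR-null replicate 1 (0.59). Smooth muscle markers averaged 0.40 on wild-type replicate 3, their highest array, but -0.19 on VDR-null replicate 1, so that the arrays with low plasma cell genes differed in muscle signal. The smooth muscle mean itself separated the genotypes, with wild-type arrays at -0.13 or above and VDR-null arrays at -0.18 or below. As a covariate it gave differences of -0.49 for Cd79a, -0.28 for Cd79b, -0.47 for Tnfrsf17, -0.56 for Mzb1 and -0.27 for Jchain, each with a limma adjusted p of 1.00. The part of other cells in the low arrays was not tested.

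**Figure D3:**
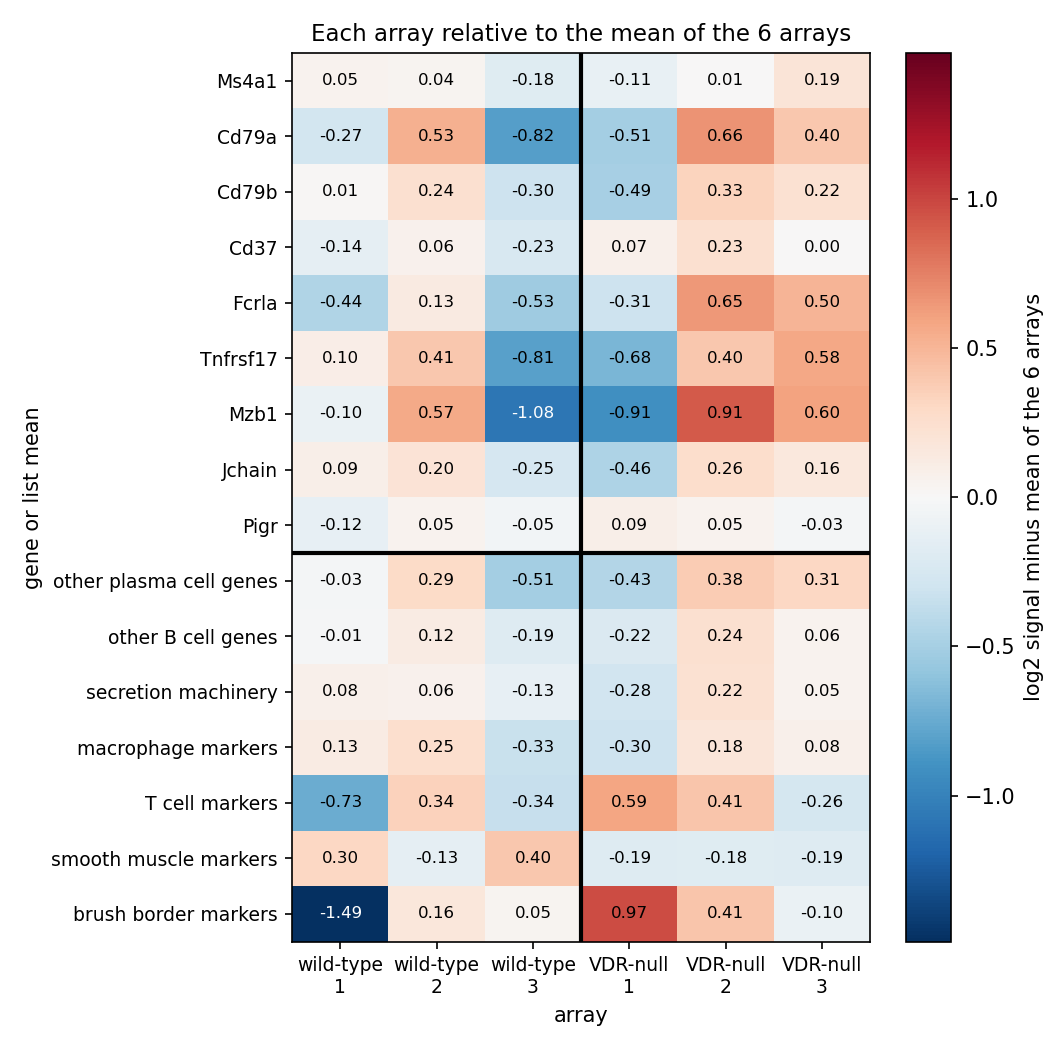
Log2 signal minus the mean of the 6 arrays (colour and printed value) for the 9 genes above the horizontal line and for the means of 7 gene lists below it, with 1 column per array. Wild-type replicate 3 and VDR-null replicate 1 are low in Cd79a, Tnfrsf17, Mzb1 and the other plasma cell genes, while the brush border list spans from -1.49 on the first wild-type array to 0.97 on the first VDR-null array.

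Lymphoid follicles were represented by few bright genes. Of 14 markers of follicles and Peyer's patches 10 could be named by 1 symbol and 6 were tested, 4 higher and 2 lower, with a median of 0.03 and 0 past the limma threshold or at an unadjusted p under 0.05. Cxcl13, the chemokine that draws B cells into follicles, gave 8.19, 8.20 and 8.65 on the wild-type arrays and 7.55, 8.27 and 8.73 on the VDR-null arrays. It was high on wild-type replicate 3, where the plasma cell genes were low. Ccl20, which recruits cells to follicle epithelium, differed by 0.44 ± 0.38 (SE). Clu, found in follicular dendritic and other cells, differed by -0.33 ± 0.16 (limma adjusted p = 0.683) with no overlap between the genotypes. Such non-overlap held for 1 of the 6 tested genes of this list, against 11.1% of all tested genes. Cxcl13 was named after its values were seen.

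Signals for IgA switching, plasma cell survival and homing showed no shared direction between the genotypes. Of 22 listed genes 13 were tested, 6 higher and 7 lower, with a median of -0.0018, 0 past the limma threshold and 0 at an unadjusted p under 0.05. Tnfsf13b encodes BAFF, a survival factor for B cells. It gave 7.23, 7.41 and 7.10 on the wild-type arrays and 7.90, 7.66 and 7.29 on the VDR-null arrays, a difference of 0.37 ± 0.17 (SE), or 0.23 without both replicate 1 arrays. The receptor of TGF-beta, a signal for switching to IgA, differed by -0.29 ± 0.13 in its Tgfbr1 subunit and by -0.25 ± 0.12 in Tgfbr2. Only Tgfbr2 had no overlap between the genotypes, 1 of the 13 tested genes of the list, against 11.1% of all tested genes. Ccl28, an epithelial chemokine for IgA plasma cells, differed by -0.02 ± 0.21. Itga4, an integrin chain used in homing to the gut, gave 7.77, 7.85 and 7.03 on the wild-type arrays and 6.83, 7.73 and 7.77 on the VDR-null arrays, with the low pair of the plasma cell genes. Tgfbr2, Ccl28 and Itga4 were named after their values were seen.

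Pigr, the epithelial receptor that carries IgA into the lumen, behaved unlike the plasma cell genes. It gave 12.34, 12.51 and 12.41 on the wild-type arrays and 12.55, 12.50 and 12.43 on the VDR-null arrays (17216960). All 6 arrays lay within 0.21 log2 units, and the standard deviation within genotypes, 0.07, was larger than that of only 11.8% of tested genes. The difference was 0.07 ± 0.09 (SE; limma adjusted p = 0.778), and the 95% confidence interval of the fold was the narrowest of the 8, from 0.91 to 1.22. Its lowest and highest arrays, wild-type replicate 1 and VDR-null replicate 1, were those of the brush border markers. With the mean of the brush border markers as a covariate the difference was -0.00034, and without both replicate 1 arrays it was 0.00695.

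Inputs to Pigr transcription and genes of the vesicle traffic that carries the receptor were mostly a little higher in VDR-null duodenum. Of 21 tested genes 16 were higher and 5 were lower, with a median of 0.09, where 44% of all tested genes were higher. In this list 0 passed the limma threshold and 2 had an unadjusted p under 0.05, against 5.23% of all tested genes. The list lay lowest on wild-type replicate 1 (-0.08 from the mean of the 6 arrays) and highest on VDR-null replicate 1 (0.11), and its median difference was 0.05 without both and 0.04 with the brush border covariate. The genotypes did not overlap in 4 of the 21, against 11.1% of all tested genes, and all 4 were higher in VDR-null duodenum. They were both chains of the interleukin-17 receptor, its adaptor and an interferon-induced factor. Il17ra gave 6.97, 6.97 and 6.99 on the wild-type arrays and 7.36, 7.27 and 7.09 on the VDR-null arrays, a difference of 0.26 ± 0.10 (SE; limma unadjusted p = 0.0297, adjusted p = 0.683). Il17rc read 8.69, 8.94 and 8.80 against 9.19, 9.07 and 9.04, a difference of 0.29 ± 0.10 (limma unadjusted p = 0.0242, adjusted p = 0.683).

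The adaptor Traf3ip2, also called Act1, gave 7.45, 7.54 and 7.47 on the wild-type arrays and 7.63, 7.64 and 7.75 on the VDR-null arrays. Its difference was 0.19 ± 0.08 (SE), and it stayed at 0.19 without both replicate 1 arrays. Irf1, through which interferon acts on Pigr, read 8.85, 8.81 and 8.77 against 9.11, 8.97 and 8.88, a difference of 0.18 ± 0.09. Without both replicate 1 arrays the differences were 0.20 for Il17ra, 0.18 for Il17rc and 0.13 for Irf1, and with the brush border covariate 0.21, 0.18 and 0.15, with a limma adjusted p of 0.999 in each. Traf3ip2 and Irf1 were named after their values were seen.

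**Figure D4:**
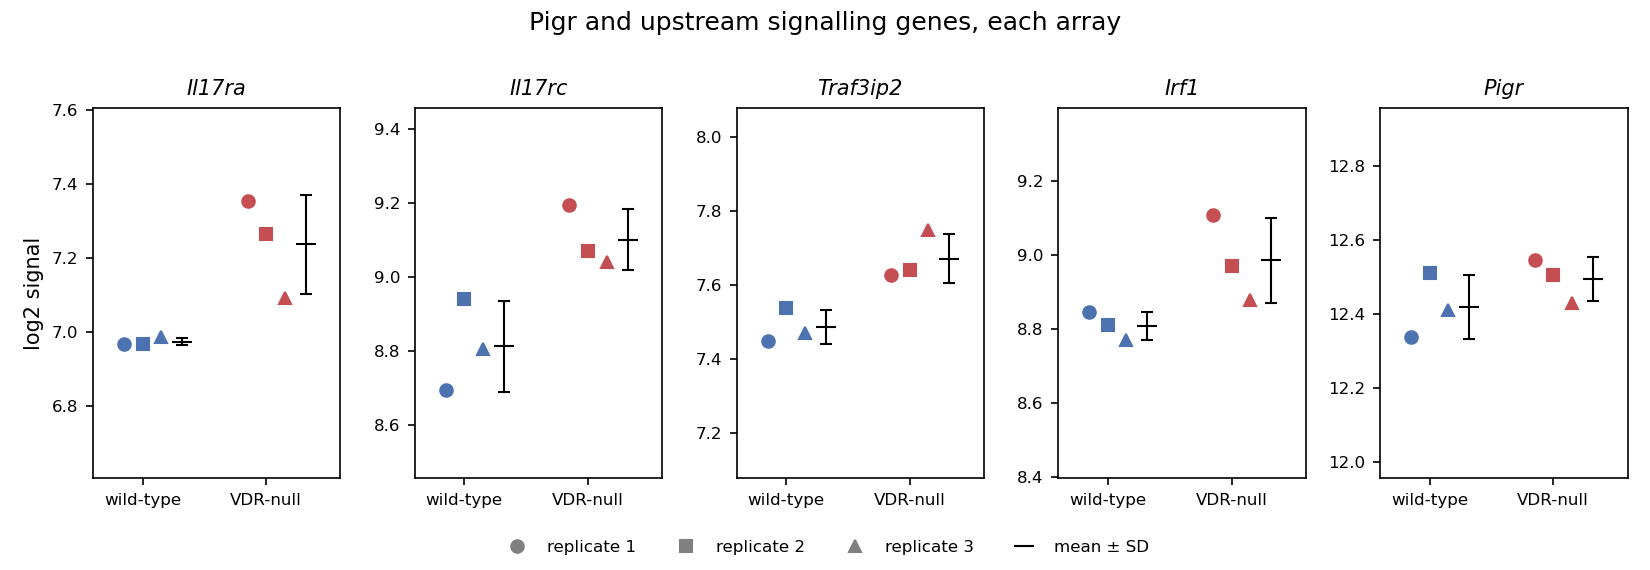
Log2 signal (y axis, every panel spanning the same number of units) of Il17ra, Il17rc, Traf3ip2, Irf1 and Pigr on each array, wild-type in blue and VDR-null in red, with the mean and SD (n = 3) in black. The first 4 genes do not overlap between the genotypes and none passed the limma threshold, while Pigr overlaps, with VDR-null replicate 3 at 12.43 below wild-type replicate 2 at 12.51.

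The genes whose values ran most like those of 3 of the members were sought among 12511 tested genes with a name of their own. The measure was Pearson's r over the 6 arrays, given without a p because the genes were picked as the highest of so many. For Jchain they were Trp53inp1, Cog3, Hs6st1, Mrpl34 and Xbp1, with r between 0.988 and 0.994. Leaving out VDR-null replicate 1 and wild-type replicate 3, the arrays farthest from the Jchain median, r was 0.947 for Trp53inp1, 0.838 for Cog3, 0.925 for Hs6st1, 0.798 for Mrpl34 and 0.913 for Xbp1. Trp53inp1, a target of p53, gave 9.78, 9.99 and 8.93 on the wild-type arrays and 8.65, 10.07 and 9.81 on the VDR-null arrays. Its range, 1.42, was wider than the 0.59 of Xbp1.

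For Pigr the most alike genes were Stam2, Impa1, Fam78a, Ddhd2 and Igsf5, with r of 0.992 to 0.993 and ranges of 0.43 to 1.56 log2 units, wider than that of Pigr. Without its farthest arrays, wild-type replicate 1 and VDR-null replicate 1, r was between 0.970 and 0.995. Stam2 encodes an adaptor that sorts ubiquitin-marked membrane proteins. For Ms4a1 they were Slc2a1, Rps27l, Rab2b, Ift27 and Atoh1, with r between 0.980 and 0.995, and between 0.943 and 0.991 without wild-type replicate 3 and VDR-null replicate 3. Because Ms4a1 was dim and moved within 0.37 log2 units, this likeness is to values near background.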

How the data were processed

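Log2 signals of 41345 probe sets on 6 arrays (Affymetrix Mouse Gene 2.0 ST) were used as deposited. Per the submitters' processing notes, the authors made these log2 values by RMA with Affymetrix Expression Console. Neither its version nor whether RMA ran on the 6 arrays at once is known from the sources used here. Of the probe sets 23521 had 1 gene symbol, 1814 several and 16010 none, and the brightest probe set of a symbol stood for its gene. The genotypes were tested by limma (version 3.58.1, R 4.3.3; lmFit, eBayes, two-sided, no covariate), adjusted by Benjamini-Hochberg over 13174 tested genes with a threshold of 0.05. The procedure was tested on simulated data. Only 3 arrays per genotype limit the precision. Members and lists were chosen with earlier results of these data known. Named genes are the members, the 2 of each list with the smallest p where at least 3 were tested, and the 5 most like Jchain, Pigr and Ms4a1; other names are marked. Alternatives were other filters, normalizations, priors and weights, covariates, a block and arrays left out. The E-box was added to the motifs after the promoters were seen. 1 list name was an older symbol of another and was counted once.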

Additional observations from a re-analysis of the deposited data

How the results depend on the processing

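Under 20 other settings and 1 more chosen after seeing the data (without wild-type replicate 3 and VDR-null replicate 1), 0 genes and 0 members passed the limma threshold in each. Genes at an unadjusted p under 0.05 ran from 137 (smooth muscle covariate) to 2718 (array weights), against 689, and members from 0 to 4 (array weights). Fcrla and Cd37 stayed positive throughout, from 0.09 to 0.93 and from 0.0091 to 0.34; the 75th percentile filter gave no value for either. The sign turned for Cd79a, Cd79b, Tnfrsf17, Mzb1 and Pigr with the smooth muscle covariate (-0.49, -0.28, -0.47, -0.56 and -0.020) and for Pigr and Jchain with the brush border covariate (-0.00034 and 0.13). For Jchain it also turned with cyclic loess (0.015), array weights (0.28), without both replicate 1 arrays (0.23) and without wild-type replicate 3 and VDR-null replicate 1 (0.06). The cause was not tested. With 1 array left out, differences ran from 0.06 to 0.73 for Cd79a, -0.12 to 0.29 for Cd79b, -0.17 to 0.19 for Jchain, -0.035 to 0.96 for Mzb1 and -0.15 to 0.59 for Tnfrsf17. The labels state no pairing by replicate number. The deviations of same-numbered arrays from their group means correlated at -0.62, 0.19 and -0.26, and not every array correlated best with its own number. Such correlations cannot exclude a pairing, because the deviations within a genotype sum to 0. With the replicate block, 0 genes passed and 338 had an unadjusted p under 0.05. Signal over background limits Ms4a1 and Fcrla.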

Other observations

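Lists of other cell types are given here by their differences between the genotypes. Of 12 goblet and Paneth cell markers 4 were higher and 8 lower on the VDR-null arrays (median -0.11), with Zg16, a goblet cell lectin, at 0.46 ± 0.21 (SE) and Itln1, an intelectin, at -0.47 ± 0.26. All 17 brush border markers were higher (median 0.66), with the peptidases Anpep at 0.66 ± 0.18 and Mep1b at 1.50 ± 0.63. Dropping wild-type replicate 1 took the brush border median to 0.35, and dropping the first array of each genotype took it to 0.04. All 10 smooth muscle markers were lower (median -0.40), with Synpo2 at -0.42 ± 0.12 and Mylk at -0.41 ± 0.12. Of these, 6 had a limma unadjusted p under 0.05, against 5.23% of all tested genes. The genotypes did not overlap in 6, against 11.1% of all tested genes. Without both replicate 1 arrays the smooth muscle median was -0.30. Of 12 T cell markers 11 were higher (median 0.43), with perforin, Prf1, at 0.29 ± 0.13 and Cd3g at 0.77 ± 0.38. The T cell median was 0.23 without wild-type replicate 1, 0.10 without the first array of each genotype, and 0.02 with the brush border covariate. Of 12 myeloid markers 3 were higher (median -0.04), with Lyz2 at -0.28 ± 0.11 and Cd14 at 0.30 ± 0.13. All 11 cell division markers were lower (median -0.26), with Tyms at -0.34 ± 0.13 and Mki67 at -0.42 ± 0.17. For cell division the median was -0.12 once VDR-null replicate 1 was dropped, and -0.04 both without the first array of each genotype and under the brush border covariate. Of 10 exocrine pancreas markers 3 were tested and all 3 were higher (median 1.87); Ctrb1, chymotrypsinogen, read 11.06 on VDR-null replicate 3 and from 6.19 to 8.57 elsewhere, and Cpa1 read 10.11 there. Without that array the pancreas median was 0.61. Of 6 fat cell markers 2 were tested, 1 higher and 1 lower (median 0.24, or -0.17 without both replicate 1 arrays). In limma 0 of these genes passed the adjusted threshold.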
